A study of Mus musculus with 3 samples.

Results

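Granzymes A, B, C, D, E, F, G, K and M and perforin, the proteins that cytotoxic lymphocytes store in granules and release onto target cells, were followed in immune cells of melanomas grown in mice of 3 ages. The 10 genes were chosen by symbol (Gzma, Gzmb, Gzmc, Gzmd, Gzme, Gzmf, Gzmg, Gzmk, Gzmm and Prf1). All 10 are among the 55401 genes listed in the count matrices, and they were chosen with earlier results of these data known. The groups were mice aged 4, 12 and 20 months, 7 of each age, whose strain, sex and genotype are not given in the sources used here. Every mouse received 500000 YUMM1.7 cells, a transplantable mouse melanoma line, under the skin, and tumours were taken on day 18, so no group lacks a tumour. Live cells carrying CD45, a surface protein of leukocytes, were sorted from digested tumours and made into droplet 3′ libraries, 1 per age. Whether cells of the 7 mice were pooled is not stated, so each age is 1 sample, no difference has a replicate check and no test was made. The series title names the question of how age bears on tumour macrophages with TREM1 and TREM2, and the lymphocytes sorted beside those macrophages carry the genes described here.

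Perforin forms pores through which granzymes, a family of serine proteases, reach the cytosol of a target cell. Granzyme B is known for cutting caspases and other substrates after aspartate, granzymes A and K cut after basic residues, and granzyme M cuts after methionine or leucine. NK cells and activated CD8 T cells are the classic sources, regulatory T cells in tumours can carry granzyme B, and granzymes C to G are rodent genes known from strongly activated NK and T cells.

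Retained cells numbered 13528, 13774 and 13803 at 4, 12 and 20 months, from deposited totals of 110371225, 127850782 and 119873564 counts. Lymphocyte clusters were called by their markers CD8 T-like (3569, 4800 and 5156 cells), regulatory T-like (734, 629 and 492), gamma-delta T-like (64, 78 and 79), NK-like (2251, 2069 and 1599) and CD4 T-like (only 4, 44 and 15). The defining markers were present in each class. Cd8b1 was at 1685, 1549 and 1581 CPM (the gene's counts for every 1000000 counts of the class) in the CD8 class and Foxp3 at 235, 196 and 166 in the regulatory class. Trdc was at 1553, 2365 and 2779 in the gamma-delta class and Ncr1 at 746, 724 and 664 in the NK class. Cd3e in NK-like cells, at 51.6, 104 and 90.7 CPM, was near its level in monocyte/macrophage-like cells, 51.9, 101 and 87.3. Within CD8 T-like cells, a sub-cluster was called resting because Dapl1 and Ccr7, markers of resting T cells, were among its leading genes. It made up 14.8%, 21.2% and 36.8% of the class from 4 to 20 months, and a dividing sub-cluster 5.58%, 10.0% and 10.8%. Monocyte/macrophage-like cells (5229, 4176 and 5096), a class that should lack these genes, served as the background that RNA free in the suspension and mixed droplets give. That background is real in these libraries: C1qa, a macrophage complement gene, was found at 144 to 169.9 CPM in the CD8, regulatory, gamma-delta and NK classes at 4 months, 182 to 194.4 at 12 and 259.8 to 266 at 20. Cell barcodes shared between libraries numbered at most 4. The intervals given are at 95% and take in counting error alone.

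Of the 10 genes, 6 lie side by side. Gzme, Gzmd, Gzmg, Gzmf, Gzmc and Gzmb, with the further granzyme Gzmn, fill 144.6 kb of the minus strand at chr14:56117626-56262260 (GRCm38, GENCODE M21). Gzma (chr13:113093825-113100981) and Gzmk (chr13:113171608-113225908) are neighbours on the minus strand of another chromosome, and Prf1 (chr10:61297833-61304680) and Gzmm (chr10:79689020-79695261) are on the plus strand of chromosome 10. The 130 bases before the RefSeq start of the chromosome 14 genes are shown because Gzmc to Gzmg, which among the named classes passed 2 times the macrophage level at all 3 ages in NK-like cells alone, share long stretches there that Gzmb lacks. They are written 5′ to 3′ on the gene's strand, from the RefSeq annotation of GRCm38.p6, and capitals mark the 3 runs of at least 12 bases that Gzmc to Gzmg all share.
Gzmb (chr14:56262335-56262464, minus strand): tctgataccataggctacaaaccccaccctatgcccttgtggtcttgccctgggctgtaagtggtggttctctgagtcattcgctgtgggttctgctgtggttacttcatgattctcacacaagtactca
Gzmc (chr14:56234658-56234787, minus strand): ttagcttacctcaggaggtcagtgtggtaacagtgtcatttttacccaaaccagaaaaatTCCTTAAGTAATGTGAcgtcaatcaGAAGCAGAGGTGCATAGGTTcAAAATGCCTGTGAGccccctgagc
Gzmd (chr14:56132594-56132723, minus strand): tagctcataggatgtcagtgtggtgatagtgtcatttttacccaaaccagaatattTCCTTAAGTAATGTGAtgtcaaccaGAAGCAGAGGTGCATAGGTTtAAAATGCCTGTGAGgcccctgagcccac
Gzme (chr14:56120626-56120755, minus strand): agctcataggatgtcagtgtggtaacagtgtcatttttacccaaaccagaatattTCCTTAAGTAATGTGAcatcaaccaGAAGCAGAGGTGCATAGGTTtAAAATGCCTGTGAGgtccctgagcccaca
Gzmf (chr14:56211408-56211537, minus strand): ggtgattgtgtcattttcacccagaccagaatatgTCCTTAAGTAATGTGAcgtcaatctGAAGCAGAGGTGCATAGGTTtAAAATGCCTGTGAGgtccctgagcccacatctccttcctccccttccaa
Gzmg (chr14:56159580-56159709, minus strand): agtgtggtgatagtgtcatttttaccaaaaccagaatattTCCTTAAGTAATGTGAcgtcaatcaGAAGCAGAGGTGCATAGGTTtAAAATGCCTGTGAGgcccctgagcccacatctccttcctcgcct

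The first run, TCCTTAAGTAATGTGA, starts 70 bases before the start of Gzmc, 74 before Gzmd, 75 before Gzme, 90 before Gzmg and 95 before Gzmf, and the runs GAAGCAGAGGTGCATAGGTT and AAAATGCCTGTGAG follow it in all 5. Searched on both strands, each run occurs in 5 of the 130-base windows of 32851 promoters (0.0152%), which are those of Gzmc to Gzmg, the genes it was taken from. At the best ungapped offset, over at least 150 bases, the 10 pairs among Gzmc to Gzmg were 63.6% to 88.9% identical (median 81.85%), and the 35 other pairs of members 30% to 35.0% (median 32.6%). The cyclic AMP response motif TGACGTCA, which overlaps the end of the first run, is in the windows of Gzmc, Gzmf and Gzmg and in 1.3% of all windows. TGTGGT, a core that Runx proteins bind, is in 7 of the 10 members' windows (Gzma, Gzmb, Gzmc, Gzmd, Gzme, Gzmg and Prf1) and in 7.26% of all windows. These are matches of letters, and whether a factor binds there was not measured. No stretch of 100 bases in the last 500 bases of a member's transcripts occurs in another gene. The antisense gene Gm4022 overlaps exons of Gzmf, whether the counting used strand is not stated in the sources used here, and Gzmf counts are therefore uncertain.

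The level of each gene by cell class was the first comparison. In NK-like cells 8 of the 10 genes (all but Gzmk and Gzmm) were at least 2 times their level in monocyte/macrophage-like cells at all 3 ages, as were 10.3% of all genes tested. In CD8 T-like cells 5 were (Gzma, Gzmb, Gzmk, Gzmm and Prf1; 11.3% of all genes). In regulatory T-like cells 1 was, Gzmb (11% of all genes). In gamma-delta T-like cells (10.7% of all genes) and in CD4 T-like cells (2.89% of all genes) 0 of the 10 passed, the CD4 class resting on few cells. The gamma-delta class is a sub-cluster led by Il17a, which stood there at 494, 494 and 785 CPM. Trdc was found outside it too, so its result does not cover every gamma-delta cell. Populations without a class name are given apart: 6 genes passed in the cluster led by Eya4 (9.68% of all genes), 6 in that led by Slc5a6 (8.47%), 7 in that led by Dpf3 (7.52%), 0 in that led by Siglech (22.6%) and 3 in unnamed T-like cells (11.7%), and 2 to 4 of each, the Siglech cluster aside, without the 10 highest cells of each gene.

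**Figure D1:**
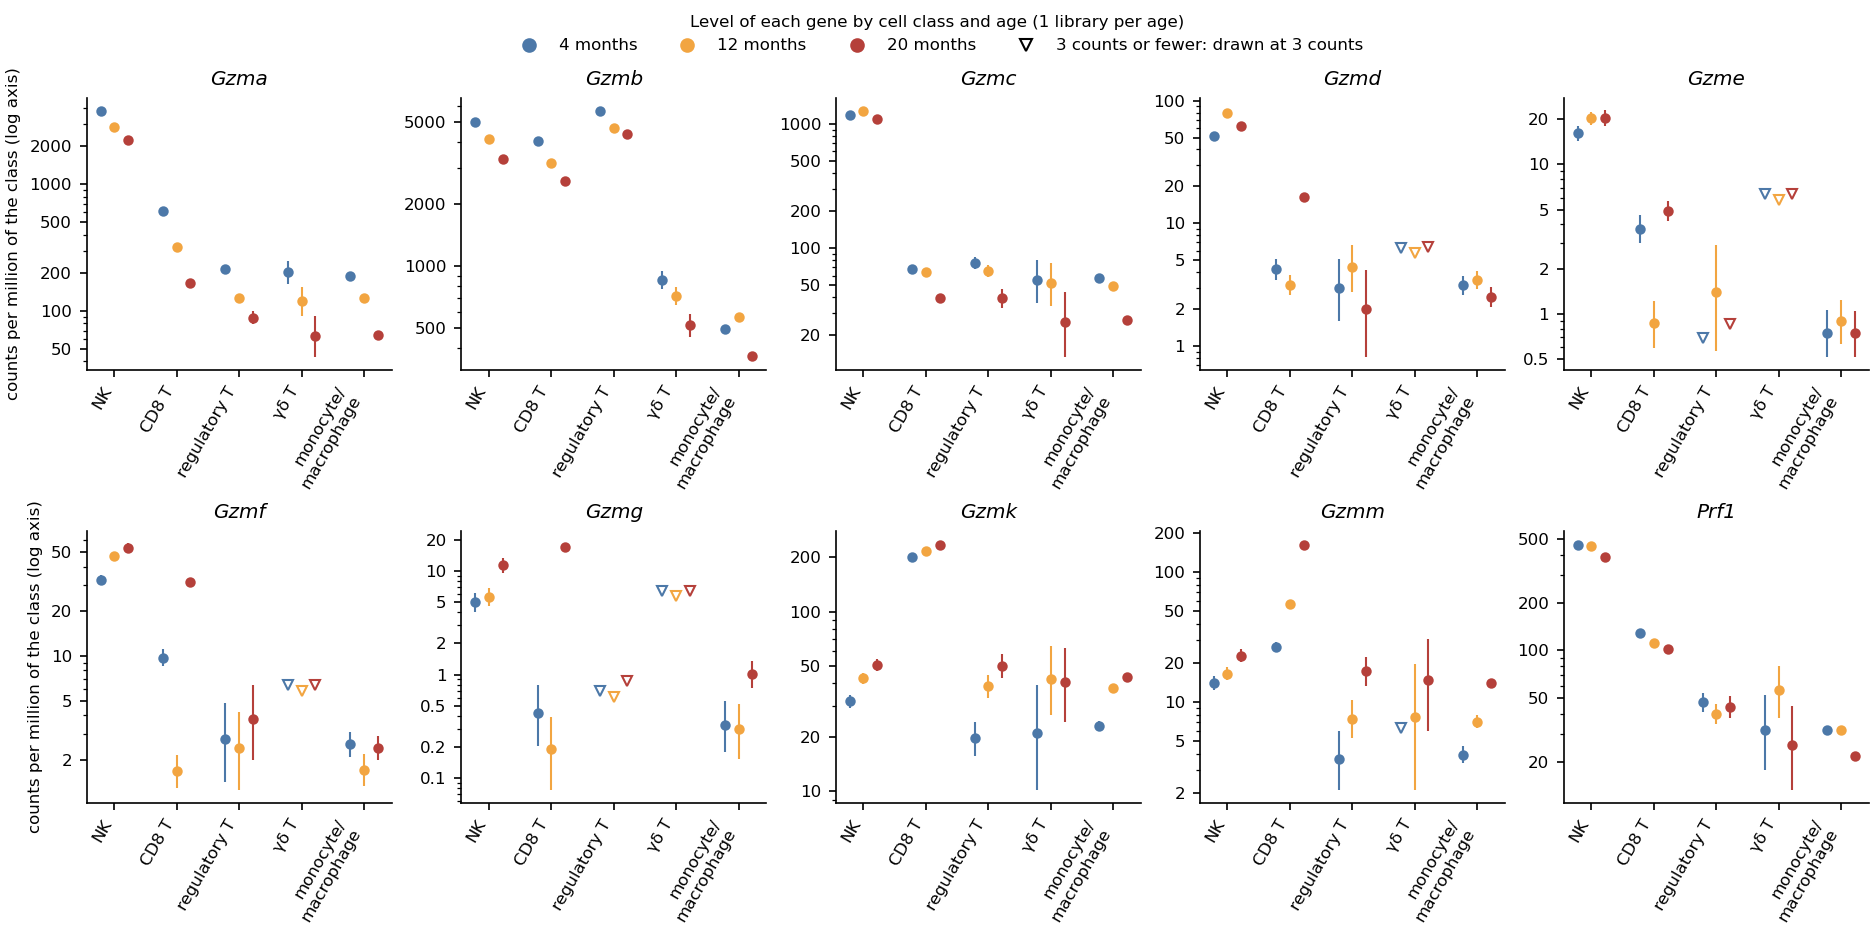
Level of each of the 10 genes (CPM, log axis) in 5 cell classes, coloured by age, with 95% Poisson intervals and open triangles for 3 counts or fewer drawn at 3 counts. NK-like cells were highest for Gzma (2248 to 3813 CPM) and Gzmc, regulatory T-like cells for Gzmb (4393 to 5644 CPM), and CD8 T-like cells for Gzmk and Gzmm.

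Prf1, the pore former, was mainly a gene of NK-like cells. It stood at 462.5 CPM (interval 452.9 to 472.4) at 4 months, 451.7 (442 to 461.5) at 12 and 385.5 (374.8 to 396.5) at 20. In CD8 T-like cells it stood at 129.4 (124.8 to 134.1), 111.3 (107.9 to 114.8) and 102.4 (99.06 to 105.7), against 31.5, 31.46 and 21.62 in monocyte/macrophage-like cells. The NK level was 3.58, 4.06 and 3.77 times the CD8 level, so the order of the classes was the same at each age. With each cell thinned to 3000 counts, 64.6%, 62.3% and 59.1% of NK-like cells had a Prf1 count, 30.1%, 26.8% and 24.9% of CD8 T-like cells, and 9.37%, 9.41% and 6.34% of monocyte/macrophage-like cells. Without thinning the shares were 86.0%, 87.0% and 81.7%, 48.3%, 49.2% and 44.8%, and 22.0%, 25.4% and 17.1%, at median depths of 7370, 7851 and 7026, 5273, 6123.5 and 5905, and 7664, 8672.5 and 7933 counts per cell. From 4 to 20 months the log2 ratio of Prf1 was -0.26 (-0.31 to -0.21) in NK-like cells, -0.34 (-0.41 to -0.27) in CD8 T-like cells and -0.09 (-0.41 to 0.22) in regulatory T-like cells, all short of the 1.5-fold size used here to call a change. Within the CD8 class, cells of the resting sub-cluster had 68.2, 73.1 and 86.8 CPM, dividing cells 91.3, 93.02 and 88.5, and all other CD8 T-like cells 147.6, 129.4 and 118.5. Resting cells held less Prf1 than those others at each age (log2 -1.11, -0.82 and -0.45). Regulatory T-like cells, at 47.06, 39.93 and 44.08 CPM, were 1.49, 1.27 and 2.04 times the macrophage level. Gamma-delta T-like cells, at 31.8, 55.9 and 25.5 CPM, stood close to it except at 12 months.

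Gzmb, the best known of the granzymes, was highest in regulatory T-like cells at every age among the named classes. It stood there at 5644 CPM (5574 to 5715), 4674 (4614 to 4734) and 4393 (4324 to 4463) at 4, 12 and 20 months. NK-like cells had 5001 (4969 to 5033), 4156 (4126 to 4185) and 3312 (3280 to 3344), and CD8 T-like cells 4060 (4034 to 4086), 3181 (3162 to 3199) and 2599 (2582 to 2615). The intervals of the 3 classes do not overlap at any age, and the regulatory level was 1.13, 1.12 and 1.33 times the NK level and 1.39, 1.47 and 1.69 times the CD8 level. This order is one of whole classes. The CD8 sub-cluster led by Ifitm1 had 5661, 4570 and 3055 CPM and the NK sub-cluster led by Gzmf 5518, 4800 and 4393, at some ages as high as the regulatory class. Monocyte/macrophage-like cells held 498.5, 568.5 and 367.9 CPM, while gamma-delta T-like cells (860, 718 and 519) and CD4 T-like cells (564, 571 and 343) were within 2 times of that background. Gzmb was found in nearly every cell of its 3 main classes. With cells thinned to 3000 counts, 97.7%, 96.2% and 92.3% of regulatory, 99.3%, 99.0% and 96.6% of NK-like and 97.2%, 96.8% and 94.2% of CD8 T-like cells had a count. The share in monocyte/macrophage-like cells was 76.5%, 81.2% and 65.6% thinned and 96.4%, 98.4% and 93.5% unthinned, so that a count of Gzmb in a cell does not mark a cytotoxic cell here.

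Gzmb was lower at 20 than at 4 months in all 3 of these classes. The log2 ratio was -0.64 (-0.66 to -0.63), or 1.56-fold lower, in CD8 T-like cells, -0.59 (-0.61 to -0.58), or 1.51-fold, in NK-like cells, and -0.36 (-0.39 to -0.33) in regulatory T-like cells, where it did not reach the 1.5-fold size. Both calls lie next to that size: without the resting sub-cluster the CD8 ratio was -0.56, and with the median of all genes set to 0 the NK ratio was -0.53. In monocyte/macrophage-like cells the ratio was -0.44, and the part played by free RNA was not tested, though with the macrophage level subtracted the ratios were -0.68 and -0.61. The CD8 class did not move as one. Resting cells had 1618, 1524 and 1818 CPM, slightly higher at 20 months (log2 0.17, 0.13 to 0.21), while CD8 T-like cells neither resting nor dividing had 4750, 4018 and 3320 (log2 -0.52, -0.53 to -0.50). Of the 6 CD8 sub-clusters with at least 50 cells in each library, 2 were at least 1.5-fold lower at 20 months, 4 were below 0 on the log2 scale, and the range was -0.89 to 0.17. Of the 8 such NK sub-clusters all 8 were below 0 and 4 passed the 1.5-fold size. Of all Gzmb counts in retained cells, the part in NK-like cells was 37.3%, 29.0% and 23.4% and the part in CD8 T-like cells 37.4%, 44.1% and 51.6%, and CD8 T-like cells became more numerous over the same ages (26.4%, 34.8% and 37.4% of retained cells).

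Gzma, a tryptase that is among the most abundant granule proteins, was chiefly an NK gene and was lower with age in both killer classes. NK-like cells had 3813 CPM (3785 to 3841), 2818 (2794 to 2842) and 2248 (2222 to 2274), a log2 ratio of -0.44 (-0.45 to -0.42) at 12 months and -0.76 (-0.78 to -0.74), or 1.70-fold lower, at 20. CD8 T-like cells had 619.5 (609.4 to 629.7), 318.8 (313.1 to 324.7) and 167.1 (162.8 to 171.4), a ratio of -0.96 (-0.99 to -0.92) at 12 months and -1.89 (-1.93 to -1.85), or 3.71-fold lower, at 20. The 3 ages stand in the same order in both classes with no overlap of intervals, and the NK level was 6.16, 8.84 and 13.5 times the CD8 level. Monocyte/macrophage-like cells moved the same way, at 188.4, 126.3 and 64.24 CPM (log2 -1.55, -1.61 to -1.49), and these values were 4.94%, 4.48% and 2.86% of the NK level. With the macrophage level subtracted, CD8 T-like cells held 431, 193 and 103 CPM, and the log2 ratio at 20 months was -2.07. Regulatory (213, 126.4 and 88.74 CPM) and gamma-delta T-like cells (201, 120 and 63.8) lay within 2 times of the macrophage level at each age. The part of free RNA in these values was not tested.

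**Figure D2:**
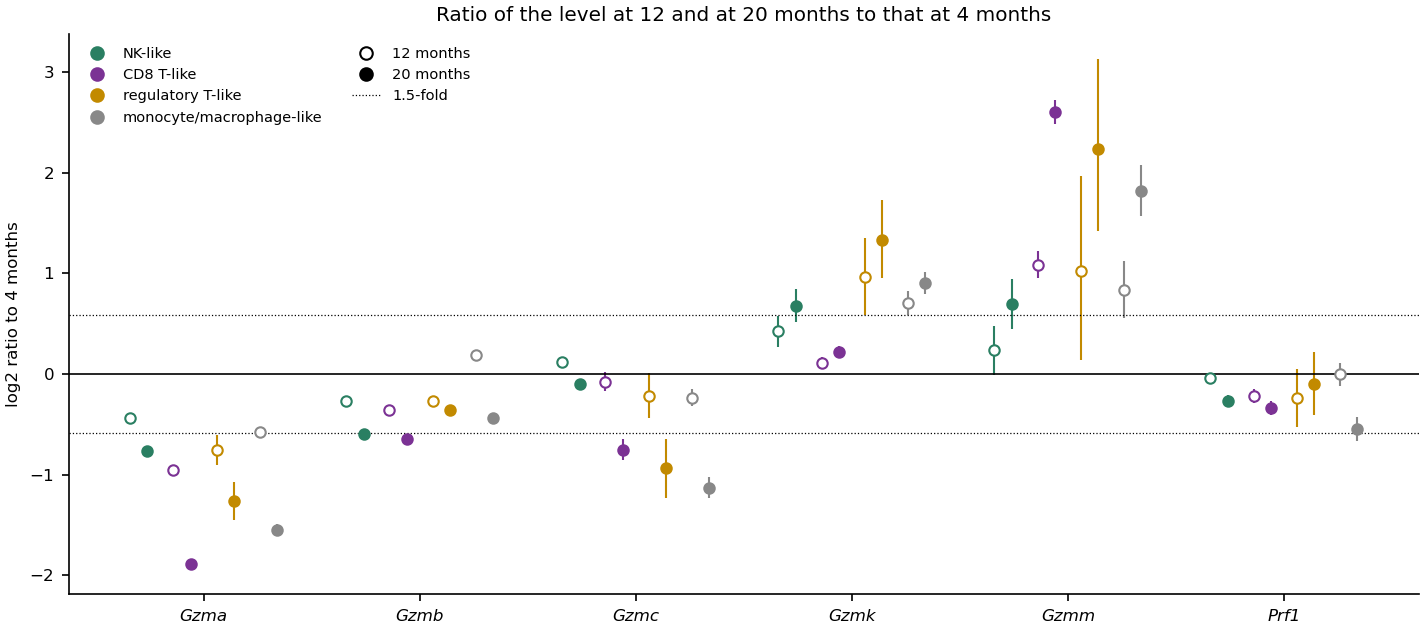
Log2 ratio to 4 months of 6 of the genes in NK-like, CD8 T-like, regulatory T-like and monocyte/macrophage-like cells (open symbols 12 months, filled symbols 20 months, bars 95% intervals of counting error, dotted lines 1.5-fold). Gzma lies below 0 in all 4 classes, furthest in CD8 T-like cells at -1.89, Gzmm lies above 0 in all 4, furthest there too at 2.60, and Prf1 stays inside the 1.5-fold lines.

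The fall of Gzma in CD8 T-like cells was present in all 6 sub-clusters with enough cells, each at least 1.5-fold lower at 20 months, with log2 ratios from -1.74 to -0.77. Resting cells went from 236.1 to 153.4 and 74.62 CPM, only 47.8, 27.1 and 10.4 CPM above the macrophage level. At the same ages CD8 T-like cells neither resting nor dividing went from 731.2 to 397.8 and 223.1 (log2 -1.71, -1.77 to -1.66). A sub-cluster led by Ifitm1 had the most, at 1548, 836 and 463 CPM against 377, 219 and 144 in the rest of the class. Gzma is itself among its leading genes, so this contrast describes the sub-cluster and is no test of it. The sub-cluster held 51.8%, 42.5% and 20.2% of CD8 Gzma counts. Its share of CD8 T-like cells was 26.8%, 21.0% and 8.88%, so both its level and its size were lower at the later ages. Hba-a1, Hba-a2 and Hbb-bs, haemoglobin genes higher in the 4-month library, also lead it, and their part in these values was not tested. Among NK sub-clusters the ratios ranged from -1.30 to 0.05 and 4 of 8 passed the size. The share of CD8 T-like cells with a Gzma count, thinned to 3000 counts, was 54.1%, 38.0% and 23.5% (74.5%, 63.9% and 40.9% unthinned), against 42.3%, 31.3% and 17.8% of monocyte/macrophage-like cells (74.8%, 66.8% and 42.0% unthinned). In NK-like cells it was 86.9%, 76.4% and 70.7% thinned and 95.7%, 89.7% and 82.9% unthinned.

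Gzmc to Gzmg, the granzymes of the chromosome 14 row beside Gzmb, were genes of NK-like cells. Gzmc stood there at 1167 CPM (1152 to 1183), 1269 (1253 to 1285) and 1088 (1069 to 1106), 17.3, 19.9 and 27.2 times the CD8 level. The log2 ratio at 20 months was -0.10 (-0.13 to -0.07), so Gzmc did not share the fall of Gzma and Gzmb in NK-like cells at the 1.5-fold size. In CD8 (67.4, 64.0 and 40.0 CPM) and regulatory T-like cells (75.5, 65.1 and 39.5) Gzmc was near the macrophage level of 57.7, 49.0 and 26.4, and the called fall in CD8 T-like cells (log2 -0.75) turned to 0.49 with that level subtracted. Gzmd had 51.93 (48.72 to 55.3), 79.28 (75.27 to 83.45) and 62.45 (58.18 to 66.96) CPM in NK-like cells against 3.12, 3.45 and 2.51 in monocyte/macrophage-like cells. Its 12-month level was 0.61 higher (0.49 to 0.73) on the log2 scale than at 4 months, while at 20 months the ratio was 0.27 (0.13 to 0.40). Gzme was at 16.2, 20.4 and 20.4 CPM, Gzmf at 32.5, 46.9 and 53.2 (log2 0.71 at 20 months, 0.55 to 0.87) and Gzmg at 5.01, 5.64 and 11.3 (log2 1.18, 0.79 to 1.57).

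These low totals came from few cells. The 10 highest NK-like cells held 68.5%, 49.4% and 55.5% of Gzmd counts, 66.1%, 49.2% and 56.0% of Gzme counts, 89.8%, 89.4% and 90.8% of Gzmf counts and 83.0%, 56.7% and 72.2% of Gzmg counts. Only 29, 45 and 31 NK-like cells had 10 or more counts of Gzmd to Gzmg together, and they carried 86.0%, 88.9% and 84.7% of all such counts in the class. The age ratios of Gzmd to Gzmg therefore rest on few cells per library. Some of the genes came together in these cells and others less so. With cells thinned to 3000 counts, 26.7%, 42.5% and 45.2% of the 60, 87 and 62 NK-like cells with a Gzmd count also had Gzme, against 0.64%, 0.55% and 0.59% of cells without Gzmd. Gzmc was present in 78.3%, 85.1% and 80.6% of the former and 39.6%, 36.8% and 31.3% of the latter. Gzmf was present in 6.67%, 10.3% and 19.4% of cells with Gzmd against 1.10%, 1.11% and 1.17% of cells without. Of the 28, 31 and 30 cells with a Gzmf count, 14.3%, 29.0% and 40% had Gzmd, against 2.52%, 3.83% and 3.19% of cells without Gzmf. The share of NK-like cells with a Gzmd count was 2.67%, 4.205% and 3.88% thinned (4.71%, 7.06% and 5.82% unthinned), against 0.841%, 1.10% and 0.765% of monocyte/macrophage-like cells.

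Although the 10 genes took no part in the clustering, 1 of the NK sub-clusters had Gzmf, Gzmd, Gzme, Gzmc and Gzmg among its leading genes, with Klrg1, an inhibitory receptor of mature NK and T cells. It had 200, 251 and 153 cells, 8.88%, 12.1% and 9.57% of NK-like cells. It held Gzmd at 289, 377 and 312 CPM against 22.3, 30.9 and 30.5 in the other NK-like cells, and 61.8%, 66.5% and 56.8% of NK Gzmd counts. Gzmc was at 3576, 3305 and 3662 CPM against 866.5, 937.8 and 757.3, and Gzmf at 101, 268 and 382 CPM, with 34.5%, 79.8% and 81.7% of NK Gzmf counts. Gzme was at 88.4, 83.3 and 81.1 CPM there and Gzmg at 26.9, 25.9 and 72.7. At 4 months Gzmf was higher in the sub-cluster led by Ccl1, at 307.2 CPM, with all of its 273 counts in 4 of 106 cells, and it held 7 counts there at 12 months and 1 at 20. The sub-cluster also kept its Gzma level, at 4634, 4462 and 4364 CPM (log2 -0.09 at 20 months), where the other NK-like cells went from 3710 to 2551 and 1977. Its Prf1 stood at 560, 646 and 570 CPM. Since the cells were grouped by genes measured in the same cells, these values describe the sub-cluster and are no test of it.

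**Figure D3:**
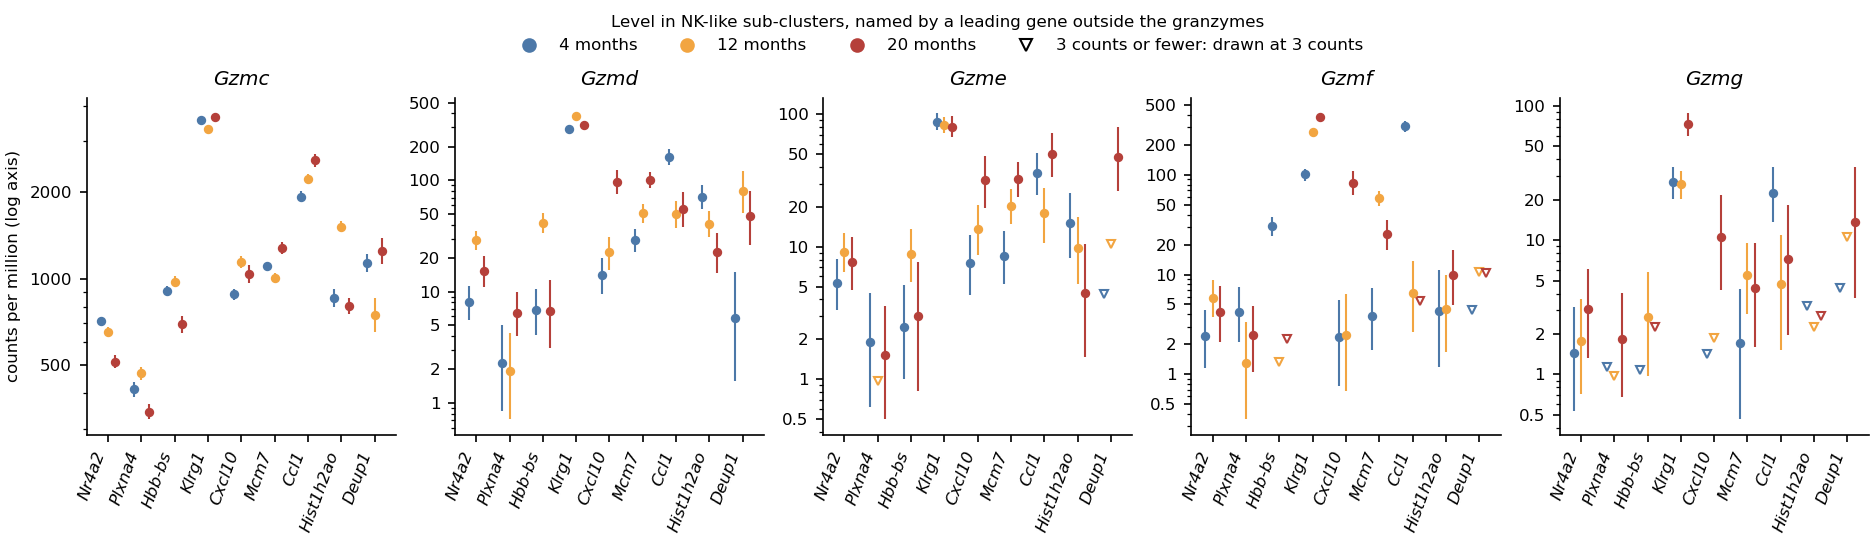
Levels of Gzmc to Gzmg (CPM, log axis) in 9 of the 10 NK-like sub-clusters, each labelled by a leading gene outside the granzymes and coloured by age, with 95% Poisson intervals. The other sub-cluster, led by Tac1, had only 22, 20 and 13 cells and is not drawn. The sub-cluster labelled Klrg1 stands highest for Gzmd (289 to 377 CPM, against 22.3 to 30.9 in all other NK-like cells together), and its 3 ages lie close to one another for Gzmc, at 3305 to 3662 CPM.

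In CD8 T-like cells Gzmd to Gzmg depended on single cells. Gzmd was at 4.23, 3.14 and 16.4 CPM, Gzme at 3.71, 0.873 and 4.91, Gzmf at 9.75, 1.69 and 31.3, and Gzmg at 0.431, 0.191 and 17.2. At 20 months 2 of 5156 cells carried 88.9% of the 2488 counts of these 4 genes, and the highest of them carried 81.9%. That cell had 10838 counts in all, with 463 of Gzmd, 137 of Gzme, 866 of Gzmf, 571 of Gzmg and 149 of Gzmc. It had 0 of Cd8a, 2 of Cd8b1, 2 of Cd3e, 0 of Cd3g and 0 of Ncr1. The second cell, with 7114 counts, had 1 of Cd8a, 2 of Cd8b1, 0 of Cd3e, 1 of Cd3g and 3 of Ncr1. Whether either is a CD8 T cell was not tested. The nominal 20-month log2 ratios of the class were 1.96 for Gzmd, 1.68 for Gzmf and 5.31 for Gzmg. With each gene's 10 highest cells left out, Gzmd and Gzmf had ratios of -0.56 and -0.27. Of Gzmg, 578 counts at 20 months lay in the sub-cluster of that highest cell. In the 3 other CD8 sub-clusters that gave a ratio it was 0.88 to 2.20, on 1 to 9 counts per library. At 4 months 4 CD8 T-like cells had 10 or more such counts, at 12 months 0.

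Gzmk, a tryptase known from early memory and exhausted-type CD8 T cells, was a CD8 gene. It stood at 201.4 CPM (195.7 to 207.3), 217.8 (213.1 to 222.7) and 235.0 (230 to 240.1) in CD8 T-like cells, which held 69.1%, 68.2% and 68.4% of all Gzmk counts. The log2 ratio at 20 months was 0.22 (0.17 to 0.27), short of the size. Of the 6 CD8 sub-clusters with enough cells 3 passed it, and the range was -0.10 to 1.11. The sub-cluster led by Pdcd1, Ccl3 and Lag3, genes of repeatedly stimulated T cells, went from 193 to 351 and 417 CPM, dividing cells from 178 to 228 and 294, and resting cells from 47.1 to 55.1 and 89.4. The resting ratio, log2 0.93, was close to the 0.91 of monocyte/macrophage-like cells. The class without resting and dividing cells had 236.9, 273 and 327.1 CPM (log2 0.47, 0.41 to 0.52). The share of CD8 T-like cells with a Gzmk count, thinned, was 35.4%, 41.4% and 40.8% (49.2%, 62.2% and 59.3% unthinned), against 6.12%, 10.3% and 12.7% of monocyte/macrophage-like cells (14.4%, 28.9% and 29.9%). In NK-like cells Gzmk was at 31.7, 42.5 and 50.7 CPM and in regulatory T-like cells at 19.7, 38.5 and 49.8, close to the macrophage level of 23.1, 37.7 and 43.2. The 20-month log2 ratios there were 0.68 and 1.34, beside 0.91 in monocyte/macrophage-like cells, and with the macrophage level subtracted the NK ratio was -0.20. The part of free RNA in these ratios was not tested.

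Gzmm, the chymotrypsin-like granzyme that cuts after methionine or leucine, rose with age in CD8 T-like cells, mainly in the resting ones. The resting sub-cluster had 55.23 CPM (47.77 to 63.53), 133.4 (125.5 to 141.6) and 352.6 (342.5 to 363) at 4, 12 and 20 months, a log2 ratio of 2.67 (2.47 to 2.89), or 6.38-fold, at 20 months. The 3 intervals lie far apart, in the order of age. The whole CD8 class had 26.7 (24.64 to 28.89), 56.75 (54.34 to 59.24) and 162 (157.9 to 166.3), a ratio of 1.09 (0.96 to 1.22) at 12 months and 2.60 (2.48 to 2.72), or 6.07-fold, at 20. This sub-cluster held 31.7%, 51.9% and 79.8% of CD8 Gzmm counts while its share of the class was 14.8%, 21.2% and 36.8%, so both its share of cells and its Gzmm level were higher at the later ages. The markers of the sub-cluster also moved: Dapl1 was at 349, 303 and 149 CPM and Il7r at 134, 149 and 201, while Lef1 stood at 119, 109 and 106. Trdc, the marker of the gamma-delta class, was at 217, 93.1 and 189 CPM, against 8.36, 9.49 and 11.0 in monocyte/macrophage-like cells. Whether the sub-cluster holds gamma-delta cells was not tested. Hba-a1, a haemoglobin gene of red cells, was at 999, 203 and 1.91 CPM there, and the part of these shifts in the Gzmm values was not tested. Gzmm, Hba-a1, Hba-a2 and Hbb-bs were themselves among the leading genes of the sub-cluster. Its Gzmm level beside that of other cells therefore describes the sub-cluster and is no test of it. CD8 T-like cells that were neither resting nor dividing had 22.1, 35.4 and 45.2 CPM (log2 1.03, 0.85 to 1.21) and dividing ones 17.5, 33.8 and 72.5 (log2 2.05, 1.60 to 2.54). Gzmm was at least 1.5-fold higher at 20 months in all 6 CD8 sub-clusters with enough cells, with log2 ratios from 0.73 to 2.67. Resting over CD8 T-like cells neither resting nor dividing, the ratio was 2.49, 3.77 and 7.80-fold. For Gzma, Gzmb, Gzmk and Prf1 the same contrast pointed the other way at each age (log2 -1.63, -1.37 and -1.58 for Gzma, and -2.33, -2.31 and -1.87 for Gzmk).

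**Figure D4:**
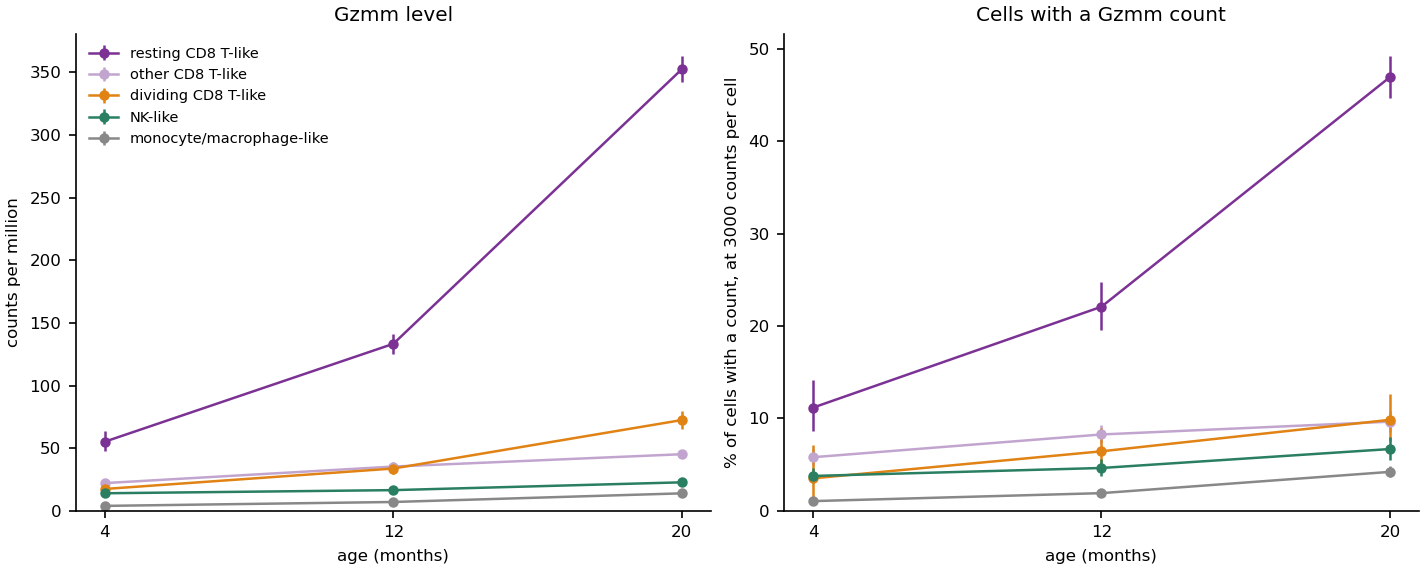
Gzmm by age in resting, other and dividing CD8 T-like cells, NK-like cells and monocyte/macrophage-like cells, as CPM and as the percent of cells with a count after thinning to 3000 counts per cell, with 95% intervals. Resting cells climb from 55.23 to 352.6 CPM and from 11.2% to 47.0% of cells, and the other populations stay at or below 72.5 CPM.

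The share of resting cells with a Gzmm count, thinned, was 11.2%, 22.1% and 47.0% (18.0%, 35.2% and 63.1% unthinned, at median depths of 5976.5, 7308.5 and 6241 counts). In the CD8 T-like cells neither resting nor dividing it was 5.81%, 8.27% and 9.66% (8.37%, 13.2% and 16.8% unthinned), and in monocyte/macrophage-like cells 1.05%, 1.92% and 4.22% (3.19%, 6.39% and 11.6% unthinned). The rise was thus seen both in how many cells had a count and in the level. Monocyte/macrophage-like cells rose too, from 3.95 to 7.07 and 13.97 CPM (log2 1.82, 1.58 to 2.08). With that level subtracted the resting cells held 51.3, 126 and 339 CPM. In NK-like cells Gzmm was at 14.02, 16.5 and 22.8 CPM and in regulatory T-like cells at 3.67, 7.46 and 17.3. Less the macrophage level NK-like cells held 10.1, 9.5 and 8.8 CPM, beside a ratio before subtraction of log2 0.70 (0.45 to 0.95). CD8 T-like cells held 51.0%, 65.2% and 78.8% of all Gzmm counts.

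Counted over the 10 genes, CD8 T-like cells at 20 months had 3 at least 1.5-fold lower than at 4 months (Gzma, Gzmb and Gzmc; 1.36% of all genes) and 4 at least 1.5-fold higher (Gzmd, Gzmf, Gzmg and Gzmm; 2.11%). At 12 months 4 were lower (Gzma, Gzme, Gzmf and Gzmg; 0.585%) and 1 higher (Gzmm; 1.72%). NK-like cells at 20 months had 2 lower (Gzma and Gzmb; 0.361%) and 4 higher (Gzmf, Gzmg, Gzmk and Gzmm; 1.52%), and at 12 months 0 lower (0.433%) and 1 higher (Gzmd; 1.73%). Regulatory T-like cells at 20 months had 3 lower (Gzma, Gzmc and Gzmg; 1.95%) and 3 higher (Gzme, Gzmk and Gzmm; 3%), of which none was 2 times the macrophage level at all 3 ages. At 12 months they had 2 lower (Gzma and Gzmg; 1.68%) and 3 higher (Gzme, Gzmk and Gzmm; 2.49%). Gzme and Gzmg enter these counts by the size rule alone, on 2, 7 and 3 counts of Gzme and 3, 1 and 1 of Gzmg in the regulatory class, and 1, 6 and 6 counts of Gzme in resting CD8 T-like cells. In the whole CD8 class most 20-month counts of Gzmd, Gzmf and Gzmg lay in 1 cell, which carried 81.9% of the counts of Gzmd to Gzmg. The 12-month call of Gzmg in that class compares 0.431 CPM at 4 months with 0.191 at 12. Resting CD8 T-like cells at 12 months had 2 lower (Gzma and Gzmf; 2.64%) and 2 higher (Gzme and Gzmm; 1.48%), and at 20 months 2 lower (Gzma and Gzmc; 2.7%) and 3 higher (Gzme, Gzmk and Gzmm; 2.24%). The shares of all genes cover only genes with a mean of at least 20 CPM. Of the members with that mean, 3 of 6 were lower and 1 higher in CD8 T-like cells at 20 months (median log2 -0.49). In NK-like cells 2 of 7 were lower and 2 higher (median -0.10). The median of all genes was -0.11 in CD8 T-like and -0.06 in NK-like cells. At 12 months, of the same members, 1 of 6 was lower and 1 higher in CD8 T-like cells, and 0 of 7 lower and 1 higher in NK-like cells.

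Dividing cells, marked by genes such as Mki67 and Top2a, were compared with other cells of their class. For NK-like cells these were all others, and for CD8 T-like cells those neither resting nor dividing. Dividing NK-like cells numbered 60, 99 and 95, with median counts of 15296.5, 10797 and 9870. An NK sub-cluster with Mcm7, Mcm5, Hells and Lig1 among its leading genes (174, 166 and 128 cells) was counted with the other NK-like cells. A CD8 sub-cluster with Dut, Hells and Lig1 among its leading genes (275, 446 and 323 cells) was counted as neither resting nor dividing. Whether these cells divide was not tested, so the compared cells are not known to be free of dividing ones. Of the 10 genes 0 were at least 1.5-fold higher than in other NK-like cells at all 3 ages (8.14% of all genes), and 2 were at least 1.5-fold lower (Gzmf and Gzmg; 0.767%). Gzmg had 3, 1 and 3 counts in dividing NK-like cells, with a 4-month interval that spans 0 (log2 -2.96 to 0.94), and Gzmf had 4, 6 and 11 counts there, while 10 cells held 90.4%, 90% and 92.3% of the Gzmf counts of the other NK-like cells. Prf1 was at 381, 256 and 263 CPM in dividing NK-like cells against 467, 467 and 397 in the others, with log2 ratios of -0.29 (-0.45 to -0.14), -0.87 and -0.60. Gzmb was lower by a similar ratio each time (-0.26, -0.41 and -0.27), and Gzma changed side, at -0.45, -0.35 and 0.42. Dividing CD8 T-like cells were below the CD8 T-like cells neither resting nor dividing in Gzmb (-0.75, -0.88 and -0.60) and in Prf1 (-0.69, -0.48 and -0.42). Resting cells, which held less of both genes, were left out of that comparison. Gzmb in dividing CD8 T-like cells stood at 2818, 2187 and 2188 CPM.

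A list of 38 other genes of the granule pathway was set beside the members. It held the granzyme Gzmn, proteins that mature and store granzymes (such as Ctsc and Srgn), serpin inhibitors, proteins of granule traffic and fusion, other killing molecules and regulators of cytotoxic cells, and 37 were in the files. In CD8 T-like cells 32 had a mean of at least 20 CPM, of which 1 was at least 1.5-fold lower and 1 higher at 20 months, against 1.36% and 2.11% of all genes, and the median log2 ratio was -0.14 against -0.11 over all genes. Ifng, the main effector cytokine of these cells, went from 363 to 171 CPM (log2 -1.09, -1.13 to -1.04), against 35.6 and 25.8 in monocyte/macrophage-like cells. Eomes, a transcription factor of cytotoxic and memory cells, went from 31.5 to 57.1 CPM (log2 0.86, 0.74 to 0.98). In NK-like cells 31 were tested, 1 was lower, again Ifng (157 to 87.8 CPM, log2 -0.84, -0.94 to -0.74), and 0 were higher (median -0.08 against -0.06), where 0.361% and 1.52% of all genes were lower and higher. At 12 months 0 passed in either class.

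The genes whose level ran most like each member were found over 56 cluster-by-library points of lymphocytes, among 5371 genes. Points from 1 library share its depth and background, so these values are descriptions. Gzma ran with Gm15518 (Pearson r 0.95), Car2 (0.94) and Klri2 (0.94), Gzmc with Spp1 (0.97), Khdc1a (0.95) and Car2 (0.95), and Prf1 with Napsa (0.95), Serpinb6b (0.93) and Cd244a (0.93). Gzmk ran with Cd8b1 (0.89), Cd8a (0.88) and Gm44174 (0.87). Gzmb had no partner as close, the first being AW112010 (0.81) and Litaf (0.75). Gzmm ran with Fcgrt (0.89), Snhg8 (0.79) and Fcgr2b (0.74).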

How the data were processed

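The authors deposited 1 table of whole-number raw counts for each library, genes by cells. STAR 2.7.10a and GRCm38 are named in the submitters' processing notes. The use of strand, the calling of cells and the choice of reads or molecules as the thing counted are not given in the sources used here. Deposited cells numbered 14393, 14653 and 14684, with median counts of 6789, 7411 and 6936.

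Cells under 500 counts or over 15% mitochondrial counts were dropped (2 cells), and the 6% of cells with the highest Scrublet score were then removed in each library (863, 879 and 881). With scanpy 1.11.5, 2000 variable genes, 30 principal components, 15 neighbours and Leiden clustering at resolution 1 (leidenalg 0.10.2) grouped all libraries together, without the members, the pathway list and 20 genes specific to 1 library. Classes were named from marker lists by a scaled marker score of at least 0.4, a scoring rule set after the clusters were seen. 3 marker symbols (Tcrg-C1, Tcrg-C2 and Tcrg-V6) matched no gene. The members and lists were chosen with earlier results of these data known.

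Counts were summed per class and library and given as CPM with exact Poisson intervals (95%). Ratios have exact conditional binomial intervals and shares Clopper-Pearson intervals. With 1 library per age no test was possible, so calls are by size, 1.5-fold between ages and 2-fold over monocyte/macrophage-like cells. Background shares are over genes with a mean of at least 20 CPM in the class. Named were all members, pathway genes at least 1.5-fold different between 4 and 20 months, and the 3 genes with the highest Pearson correlation of log2(CPM + 10) for 6 members, of which 1 is not reported here. Sub-clusters and single cells were named after their values were seen. On simulated data with 2-fold changes in 200 genes of at least 20 CPM, all were called in CD8 T-like and NK-like cells. The simulated sums held counting error alone, with no difference between mice, libraries or single cells. They therefore cannot show how reliable the calls between ages are.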

Additional observations from a re-analysis of the deposited data

Results flagged for a closer look

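Some cells entered none of the comparisons because the naming rule gave them no class, and in 4 of the 5 such populations several of the genes stood above the level in monocyte/macrophage-like cells. In a cluster led by Eya4 (129, 181 and 98 cells at 4, 12 and 20 months) 6 of the 10 genes were at least 2 times that level at all 3 ages, Gzma, Gzmb, Gzmc, Gzmk, Gzmm and Prf1, as were 9.68% of all genes, with Gzmb at 4257, 3186 and 2988 CPM. In a cluster led by Slc5a6 (74, 46 and 49 cells) the same 6 passed (8.47% of all genes), with Gzmb at 4795, 2978 and 3061 CPM. In a cluster led by Dpf3 (102, 65 and 106 cells) 7 passed, those 6 and Gzmd (7.52% of all genes), with Gzmb at 1612, 1970 and 1411 CPM. In T-like sub-clusters that stayed unnamed (526, 931 and 289 cells) 3 passed, Gzmb, Gzmm and Prf1 (11.7% of all genes), with Gzmb at 1905, 1768 and 1639 CPM. In the cluster led by Siglech (62, 57 and 52 cells) 0 passed (22.6% of all genes), with Gzmb at 515.7, 635 and 359.7 CPM. Of its leading genes 5 were markers of plasmacytoid dendritic cells, but endothelial markers scored higher (1.000 against 0.943), so it stayed unnamed. Many of these calls rest on few cells. Without the 10 highest cells of each gene, a setting chosen after seeing the data that takes out a large part of such small clusters, 4 genes passed in the cluster led by Eya4 (Gzma, Gzmb, Gzmk and Prf1), 2 each in those led by Slc5a6 and Dpf3 (Gzmb and Prf1) and 2 in the unnamed T-like cells (Gzmb and Gzmm).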

How the results depend on the processing

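No paired analysis was possible because there is 1 library per age. Of the counts of genes recomputed under the alternatives, 133 were within 1.5 times and 34 were not, and the cause was not tested. Of the ratios of single members, 423 stayed inside their counting interval, 224 moved outside it and 11 that had passed the 1.5-fold size turned sign. Sign changes of ratios short of that size are not among the 11 and fall under the 423 and 224. Over the alternatives the 20-month log2 ratio in CD8 T-like cells was -2.07 to -1.32 for Gzma, -0.72 to -0.54 for Gzmb and 1.26 to 2.76 for Gzmm, and in NK-like cells -1.07 to -0.64 for Gzma and -0.67 to -0.53 for Gzmb. With classes taken from marker counts per cell, whose NK class held only 426, 89 and 145 cells, genes at 2 times the macrophage level numbered 10 in CD8, 3 in CD4, 6 in regulatory, 7 in gamma-delta and 5 in NK cells. CD8 T-like cells had 2 lower at 12 months, and NK-like cells 2 lower and 3 higher. There Gzmd in NK-like cells at 12 months was -1.42, and in regulatory T-like cells Gzmg was 0.99 at 12 and 1.00 at 20 months and Gzmk -0.032 at 12. With the macrophage level subtracted, CD8 T-like cells had 2 higher at 12 months, NK-like cells 1 lower and 2 higher at 12 and 2 higher at 20, and the pathway list 3 lower in CD8 and 2 lower in NK-like cells. Gzmc in CD8 T-like cells was then 0.49, and Gzmk and Gzmm in NK-like cells -0.20 and -0.20, all at 20 months. Without the 10 highest cells of each gene, CD8 T-like cells had 2 lower at 12 and 2 higher at 20 months, NK-like cells 5 higher at 12, and Gzmd and Gzmf in CD8 T-like cells at 20 were -0.56 and -0.27. With each library clustered alone, CD8 T-like cells at 20 months had 6 lower and 2 higher, and Gzmd and Gzmf were -0.95 and -1.34. Genes higher at 12 months in NK-like cells numbered 2 by mean CPM per cell, at Leiden resolution 0.5, with 20 principal components, with no doublet removal and with each library alone, and 0 in cells with at least 5000 counts. Genes lower at 20 months in NK-like cells numbered 1 in cells with at least 5000 counts, at resolution 0.5, with 20 components, with each library alone and after centring on all genes. In CD8 T-like cells 1 was lower at 20 months without resting cells and 1 at resolution 0.5. The CD4 class had 1 gene with no doublet removal. With the library-specific genes kept, an alternative chosen after seeing the data, 0 genes were higher at 12 months in CD8 T-like cells, Gzmm being at 0.57. CD4 T-like cells gave no value at resolution 0.5 or with each library alone, nor did gamma-delta T-like cells at 20 months with each library alone, nor dividing NK-like cells by marker counts.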
